A study of Mus musculus with 5 samples.

Results

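The Wnt pathway was examined through 47 of the 15093 genes in the deposited TRAP-seq table of CeA Drd2 neurons. The members were every gene whose name begins with Wnt, Fzd, Sfrp, Dvl, Axin or Rspo and a digit, together with a named set of inhibitors, receptors, secretion factors, kinases and transcription factors. They comprised 10 Wnt ligands, 4 R-spondins, 4 secreted Frizzled-related proteins (Sfrp), 2 Dickkopf inhibitors, 9 Frizzled receptors, 1 co-receptor, 2 alternative receptors, 2 secretion factors, 3 Dishevelled proteins, 5 destruction complex genes, beta-catenin and 4 TCF/LEF factors. Membership was set by gene name and no measured value entered the rule, but the rule was chosen with earlier results of these data known. A further 3 names in the same definition, Dkk4, Lrp5 and Ror2, were not analysed here. All 5 libraries came from adult mice of the Drd2-TRAP strain, in which Cre driven by the Drd2 promoter switches on a GFP-tagged ribosomal protein (EGFP/Rpl10a) from the Rosa26 locus, permanently in any cell that has carried Cre. Bilateral 1 mm punches over the central amygdala (CeA) were pooled from 3 animals per library, and polyA RNA was purified from the tagged ribosomes. Fear conditioned mice (replicates 2, 3 and 4), which received paired tones and foot shocks, were compared with control mice (replicates 6 and 7). For the controls the labels give home cage animals, whereas the results text describes exposure to the tone alone. The labels also place collection 2 h after extinction and the results text 2 h after conditioning, so the time and the control treatment are given here only as far as both allow.

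Wnts are secreted lipid-modified proteins that are acylated by Porcn and carried to the cell surface by Wls. On a receiving cell they bind a Frizzled receptor and the co-receptor Lrp6, Dishevelled is recruited, and the destruction complex of Axin, Apc and Gsk3 stops marking beta-catenin for degradation. Beta-catenin then enters the nucleus and works with TCF/LEF factors. R-spondins strengthen the signal at the membrane, whereas Sfrp and Dickkopf proteins weaken it outside the cell. In the adult brain the pathway is known for roles in synapse formation, plasticity and the blood-brain barrier.

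The unit throughout is the deposited normalised read count, scaled by the authors to nearly the same total in each library, and whole reads could be recovered behind every value. Depth ranged from 19605318 to 27937520 recovered reads per library, so that 3 reads corresponded to a normalised read count of 0.1002 to 0.158. Control replicate 7 stood apart in its number of undetected genes. It held 0 reads for 2681 genes (17.8%), against 976 genes in control replicate 6 and 159 to 349 genes in the fear conditioned libraries. Of the Wnt pathway members, 18 of 47 (38.3%) were at 0 in control replicate 7, against 4 in control replicate 6 and 1 to 5 in the fear conditioned libraries. Marker lists of cell types also differed between the groups. All 18 striatal projection neuron markers had reads in every library, and their summed level was 28961 to 33535 in fear conditioned and 12800 to 19885 in control libraries. Central amygdala neuron markers summed to 219 to 398 and 481 to 712, with Tac2 at 0 in control replicate 7 and the other 11 of 12 detected everywhere. The summed levels of choroid plexus markers were 112 to 185 in fear conditioned and 1931 to 2249 in control libraries, and those of astrocyte markers 931 to 1178 and 2461 to 3044. Oligodendrocyte lineage markers summed to 1298 to 2741 and 2862 to 5406, microglia markers to 88.0 to 170 and 194 to 211, endothelial and mural markers to 26.1 to 61.2 and 120 to 123, and meningeal fibroblast markers to 10.8 to 16.5 and 51.6 to 58.5. Pallial glutamatergic neuron markers overlapped, at 602 to 1020 and 961 to 1319. Single markers did not all follow the sum of their list. Of the 12 central amygdala neuron markers, 5 had a limma log2 fold change above 0, among them Isl1, and 7 below 0. The same counts, 5 and 7, held for the 12 microglia markers. In a pull-down from tissue, differences in cell number, in RNA per cell and in the purity of the pull-down cannot be told apart. Their part in these sums was not tested.

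Within the pathway, cytoplasmic members had higher levels than secreted ones. Levels were compared between genes as normalised read count per kilobase of the deposited gene length, averaged over the 5 libraries. The median of the 13 cytoplasmic and nuclear members was 4.70 per kilobase, with a range of 0.173 to 51.0. The 20 secreted members had a median of 0.569, from 0.114 to 4.00, and the 11 receptors with a usable length had a median of 0.942, from 0.147 to 6.12. Across all genes the median was 4.62. Ctnnb1, which encodes beta-catenin, was the highest member at 51.0 per kilobase, above 90.1% of all genes. Its level in single libraries ran from 42.6 to 65.5 per kilobase. Gsk3a, a destruction complex kinase, came next at 23.2 to 37.3 per kilobase, so that these genes did not overlap in level. The highest library of Dvl1, the leading Dishevelled gene, reached 18.4 per kilobase, below every library of Gsk3a. Dvl1, Gsk3b and Porcn overlapped one another.

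**Figure D1:**
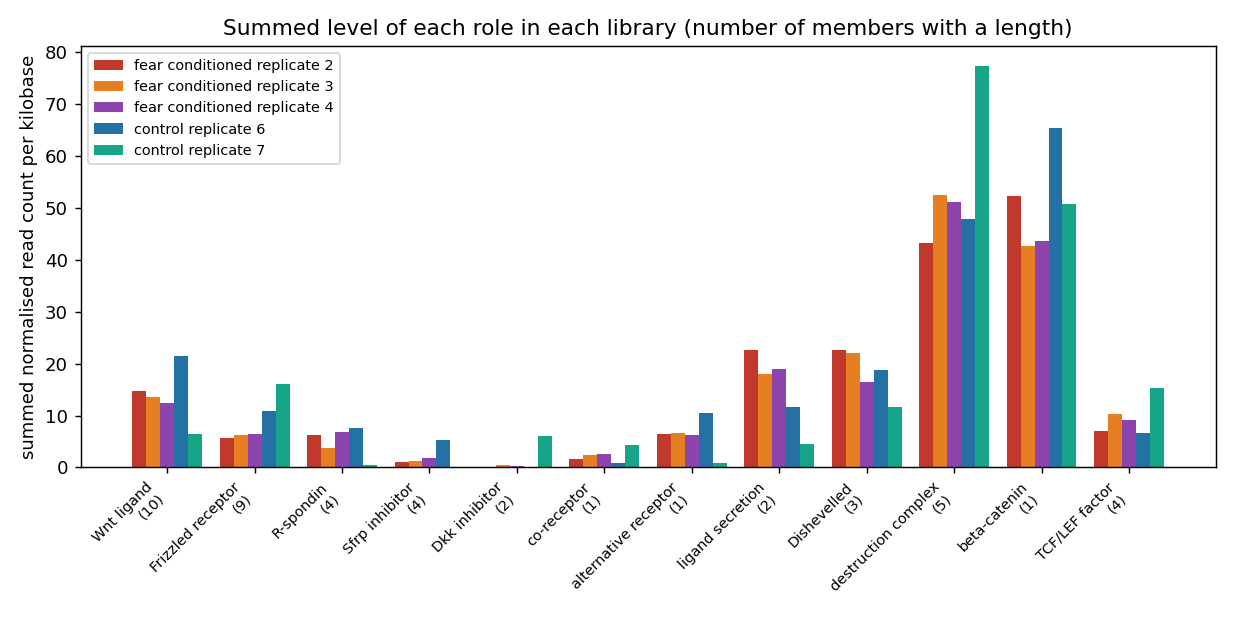
Summed normalised read count per kilobase of gene length for each role in the pathway, with 1 bar per library (fear conditioned replicates 2, 3 and 4 and control replicates 6 and 7, from left to right) and the number of members with a usable length in brackets. The destruction complex summed to 43.2 to 77.4 per kilobase, whereas Sfrp inhibitors reached 1.08 to 1.91 in fear conditioned libraries, 5.33 in control replicate 6 and 0 in control replicate 7.

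No Wnt pathway gene passed the test between fear conditioned and control libraries once all genes were accounted for. Of the 47 members, 41 had a mean normalised read count of at least 1 and were tested with limma on log2(value + 1) in a fit of 13560 genes. None passed an adjusted p of 0.05 with an absolute log2 fold change over 0.5, and the same was true of all genes (0 called, 0.0%). The smallest adjusted p of a member was 0.197. At an unadjusted p under 0.05, 4 members were higher and 4 lower (9.76% each), against 9.49% and 7.32% of all genes. The higher ones were Lef1, Porcn, Rspo2 and Sfrp1, and the lower ones Apc, Fzd1, Fzd6 and Wnt7a. All 3 fear conditioned libraries lay above both controls for 8 members (19.5%) and below both for 6 members (14.6%), where the shares of all genes were 20.2% and 16.1%. The members' shares were thus near those of all genes in both directions. Their log2 fold changes ran from -1.99 to 2.67, with a median of 0.16 beside 0.08 for all genes. The sign of the members' median depended on the processing, at -0.09 with quantile normalisation, -0.19 with a value of at least 1 required in every library and -0.22 by DESeq2. It was 0.79 without control replicate 6 and -0.08 without control replicate 7.

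**Figure D2:**
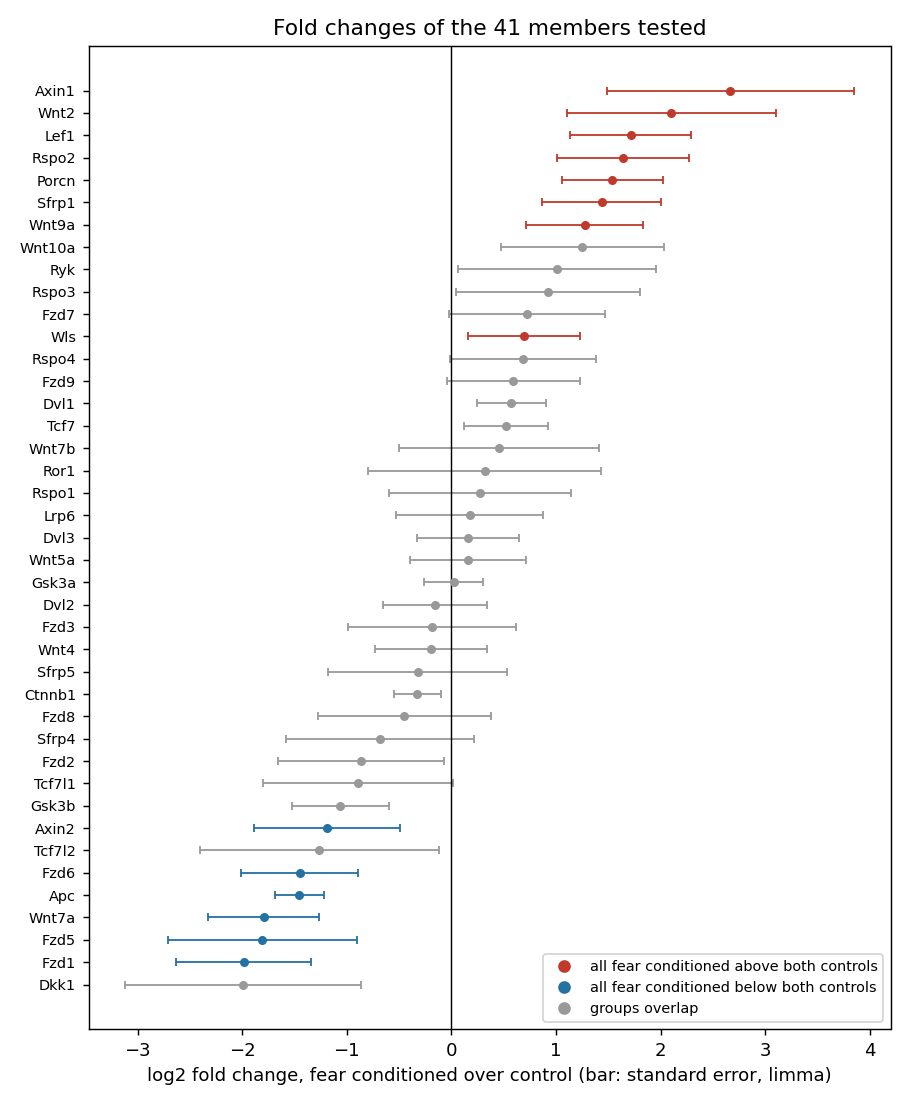
Log2 fold change of fear conditioned over control libraries with its standard error for each tested member, ordered by size, on the log2(normalised read count + 1) scale (3 fear conditioned and 2 control libraries). Red marks the 8 members with every fear conditioned library above both controls, blue the 6 with every one below both, and grey the others.

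The spread between the controls set the precision of these comparisons. For 32 of the 41 members tested (78.0%), the control libraries differed from each other by more than the whole range of the fear conditioned libraries, as they did for 75.7% of all genes. The median gap between the controls was 1.52 on the log2(value + 1) scale over the members and 1.08 over all genes. The corresponding median ranges of the fear conditioned libraries were 0.56 and 0.44. The count of members past both cutoffs stayed at 0 without any single fear conditioned library, but became 29 of 37 tested without control replicate 6 and 13 of 41 without control replicate 7, where the lone control is assumed to vary like the other libraries. Calls over all genes rose with them, to 60.5% and 27.5% of the genes tested. At an unadjusted p under 0.05 the 8 members became 31 and 18 in those fits, beside 65.4% and 41.8% of all genes, and 2 to 4 without a single fear conditioned library, beside 6.51% to 7.84% of all genes. edgeR on the recovered reads called 0 members, with 0 genes called in all. DESeq2 on the same reads called 4 of 47 members, Apc, Dkk1, Lef1 and Wnt7a, and 1128 of 15093 genes (7.47%). With 3 libraries against 2, an exact permutation test of a single gene cannot give a p below 0.1.

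Of the 10 Wnt ligands, none passed the adjusted test, 7 of them being tested. Wnt2 (ENSMUSG00000010797), a ligand of the canonical pathway, had the highest level per kilobase of the family on the mean of all libraries, at 4.00. It led in the 3 fear conditioned libraries, whereas Wnt7a led in both controls, at 6.67 and 4.25 per kilobase against 3.91 and 0.0857 for Wnt2. Its normalised read counts were 15.8, 15.8 and 17.7 in the fear conditioned libraries, 12.02 in control replicate 6 and 0.264 in control replicate 7. Every fear conditioned library was above both controls, but the low value came from 5 reads in a single library. The log2 fold change was 2.10 (SE 1.00, limma adjusted p = 0.347), and it was 0.42 without control replicate 7.

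Wnt7a (ENSMUSG00000030093) was the ligand with every fear conditioned library below both controls. It is known for its role with Wnt7b in building the blood-brain barrier and for acting at synapses. It read 5.59, 4.33 and 3.97 in fear conditioned libraries, against 23.0 and 14.7 in controls. The groups did not overlap and the control mean was 4.07-fold higher. A log2 fold change of -1.79 (SE 0.53, limma adjusted p = 0.217) resulted, and DESeq2 gave an adjusted p of 0.0132. Wnt7b, its close relative, did not follow the same order. Its values were 14.3, 12.4 and 8.59 in fear conditioned libraries, 26.3 in control replicate 6 and 2.06 in control replicate 7. The controls lay on either side of them. At an unadjusted p under 0.05 (limma), 7 of 12 astrocyte markers were lower, the direction of Wnt7a, beside 7.32% of all genes, and 2 of the 12 had log2 fold changes above 0. Other lists moved the same way, with 7 of 10 choroid plexus, 5 of 12 oligodendrocyte lineage and 2 of 4 meningeal fibroblast markers lower. The part of these cell types in the difference of Wnt7a was not tested.

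Wnt9a (ENSMUSG00000000126), a ligand known from joint and limb development, was at the limit of detection in controls. It had 60, 35 and 13 reads in fear conditioned libraries and 2 and 0 reads in controls, or normalised read counts of 2.84, 1.46 and 0.645 against 0.0668 and 0. The groups did not overlap. The ratio of pooled reads per depth was 40.5, with a 95% exact binomial interval of 10.9 to 339 that covers counting error only. On the log2(value + 1) scale the difference was 1.27 (SE 0.56, limma adjusted p = 0.321). Among the other 7 ligands the groups overlapped. Wnt4 held 5.06 to 6.64 in fear conditioned and 5.59 to 7.68 in control libraries, and Wnt5a, the main ligand of beta-catenin-independent signalling, held 2.04 to 4.12 and 2.07 to 2.64. Wnt10a was 2.58 to 4.93 after fear conditioning, 3.34 in control replicate 6 and 0 in control replicate 7. Wnt2b, Wnt3 and Wnt6 stayed below a mean of 1 and were not tested, and each was at 0 in control replicate 7.

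Both secretion factors were higher in every fear conditioned library than in either control, as were 20.2% of all genes tested. Porcn (ENSMUSG00000031169), the acyltransferase that lipidates Wnts, read 66.9, 49.6 and 55.4, against 32.0 and 11.1 in controls. Its mean was 2.66-fold higher after fear conditioning, and the log2 fold change was 1.54 (SE 0.48, limma adjusted p = 0.230). It dropped to 0.81 once control replicate 7 was left out. Wls (ENSMUSG00000028173), the carrier that takes lipidated Wnts to the surface, read 9.77, 11.6 and 8.74, against 7.68 and 4.32. The fold was 1.67 and the log2 fold change 0.69 (SE 0.53, limma adjusted p = 0.534), smaller than the gap between the controls. This log2 fold change was 0.34 without control replicate 7 and 1.044 without control replicate 6. Neither gene passed the test.

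**Figure D3:**
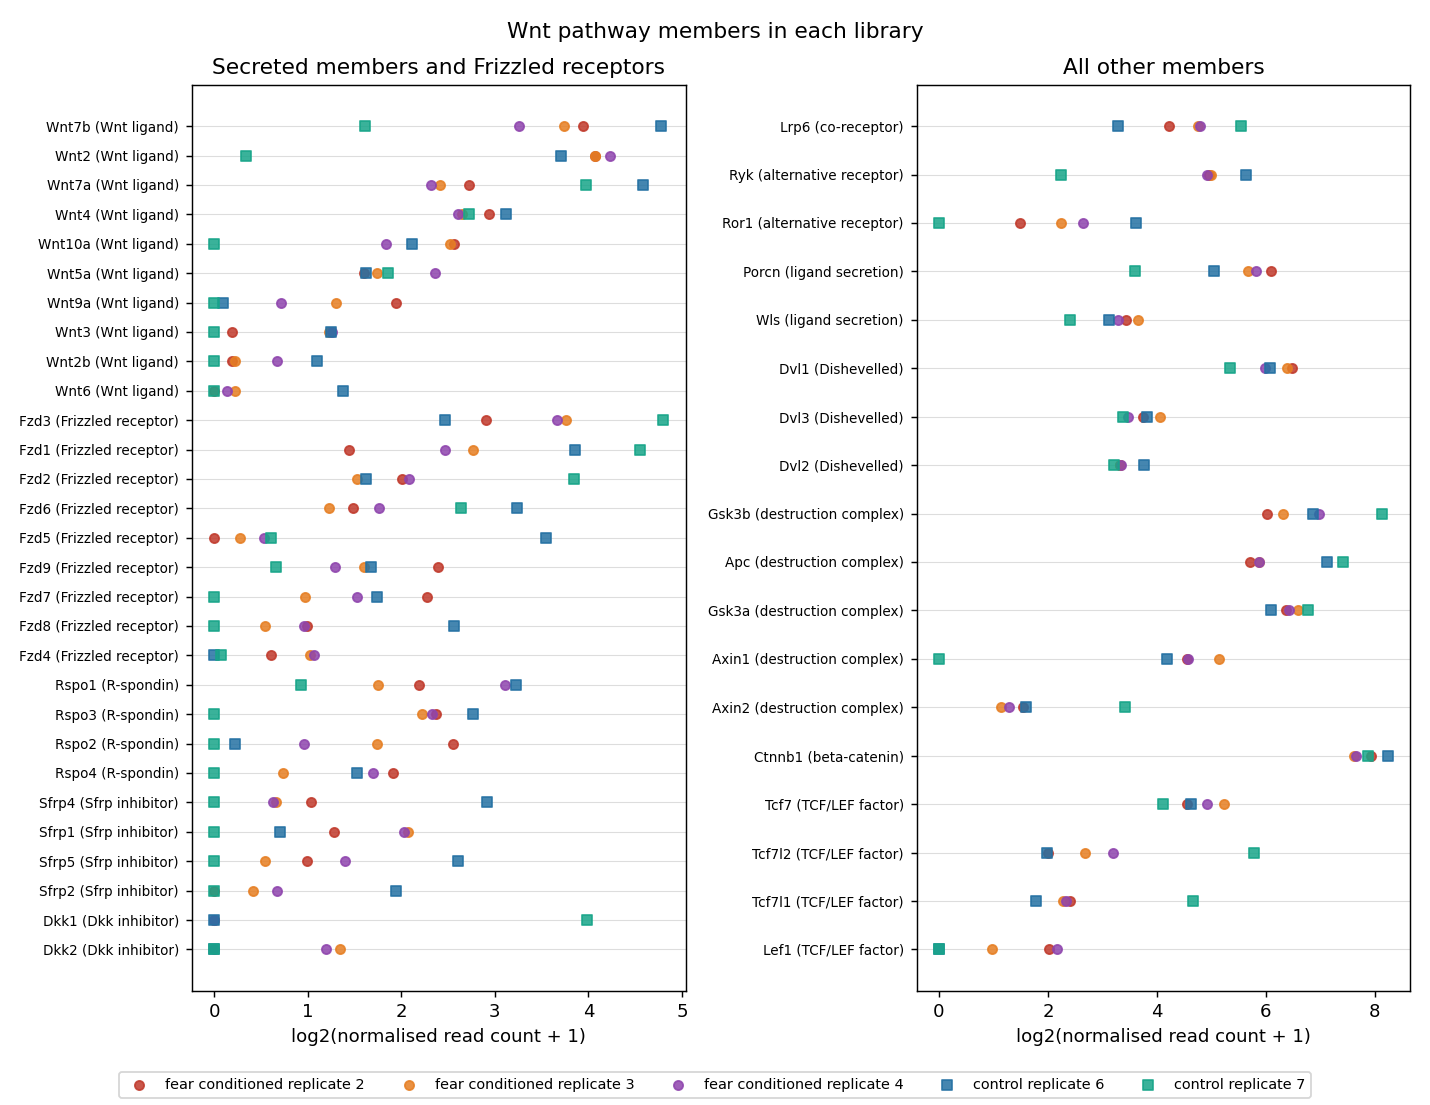
Log2(normalised read count + 1) of each of the 47 members in each library, with secreted members and Frizzled receptors on the left and all others on the right (circles, fear conditioned; squares, control). Control replicate 7 lies at 0 for 18 members, among them all 4 Sfrp inhibitors. It is the highest library for several others, including Dkk1, Tcf7l1, Tcf7l2, Lrp6, Apc and Gsk3b.

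R-spondins, the secreted amplifiers of Wnt signalling, had 16 to 251 reads each in the fear conditioned libraries and control replicate 6, apart from Rspo2 with 5 reads in control replicate 6, and 3 of 4 were at 0 in control replicate 7. Rspo2 (ENSMUSG00000051920) had 103, 56 and 19 reads in fear conditioned libraries and 5 and 0 reads in controls. The corresponding normalised read counts were 4.88, 2.33 and 0.943 against 0.167 and 0, with no overlap between groups. Its log2 fold change was 1.64 (SE 0.63, limma adjusted p = 0.280). Rspo1 (ENSMUSG00000028871) was the highest of the family per kilobase on the mean of all libraries, at 2.36, and read 3.56, 2.37 and 7.60 after fear conditioning, 8.38 in control replicate 6 and 0.896 in control replicate 7. Its log2 fold change of 0.27 (SE 0.87) turned to -0.88 without control replicate 7 and to 1.42 without control replicate 6. The values of Rspo3 were 3.66 to 4.17 in fear conditioned libraries, 5.78 in control replicate 6 and 0 in control replicate 7, and those of Rspo4 were 0.666 to 2.75, 1.87 and 0.

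The extracellular inhibitors were among the least expressed members. Sfrp1 (ENSMUSG00000031548), which binds Wnts away from their receptors, read 1.42, 3.21 and 3.08 after fear conditioning and 0.634 and 0 in controls. The groups did not overlap, with a log2 fold change of 1.44 (SE 0.57, limma adjusted p = 0.283). Sfrp2, Sfrp4 and Sfrp5 showed the other arrangement, with their highest value in control replicate 6 (2.84, 6.55 and 5.08), 0 in control replicate 7 and fear conditioned libraries between 0 and 1.64. Sfrp5 was the highest of the 4 per kilobase on the mean of all libraries, at 0.861. Its 3 fear conditioned values were 0.996, 0.458 and 1.64, and its log2 fold change was -0.32 (SE 0.85), which became 0.50 with a pseudocount of 0.1.

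Dkk1 (ENSMUSG00000024868), which blocks the co-receptor Lrp6, was detected in 1 library alone. Control replicate 7 held 281 reads, a normalised read count of 14.8, while control replicate 6 and all 3 fear conditioned libraries held 0 reads. The fear conditioned mean was at least 53.4-fold lower than the control mean at a floor of 3 reads per library, but the control mean rested on replicate 7 and the groups overlapped. In the limma fit its log2 fold change was -1.99 (SE 1.13, limma adjusted p = 0.414). DESeq2 called the gene with an adjusted p of 4.61e-09, although it had no reads in control replicate 6. Dkk2 had the reverse arrangement, with 37 and 26 reads in fear conditioned replicates 3 and 4 and 0 reads in the other 3 libraries. It was not tested, and the fear conditioned mean was at least 7.31-fold higher at the same floor.

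None of the 8 Frizzled receptors tested passed the adjusted test, and 6 of them had log2 fold changes below 0. Every fear conditioned library was below both controls for 3 of the 8, Fzd1, Fzd5 and Fzd6, and above both for none, where the shares of all genes were 16.1% and 20.2%. The median log2 fold change was -0.65. Fzd1 (ENSMUSG00000044674), a canonical receptor, read 1.71, 5.79 and 4.52 against 13.5 and 22.5. Its control mean was 4.49-fold higher, and the log2 fold change was -1.98 (SE 0.65, limma adjusted p = 0.234). Fzd6 (ENSMUSG00000022297), known from planar polarity, read 1.80, 1.33 and 2.38 against 8.45 and 5.22, a log2 fold change of -1.45 (SE 0.56, limma adjusted p = 0.279). Without control replicate 7 and without control replicate 6, the log2 fold changes were -1.63 and -2.33 for Fzd1 and -1.75 and -1.15 for Fzd6. As the groups of both genes did not overlap, their direction could not turn when a control was left out.

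Fzd5 (ENSMUSG00000045005), a receptor known from eye and vascular development, depended on a single control. It read 0, 0.208 and 0.447 after fear conditioning, 10.7 in control replicate 6 and 0.527 in control replicate 7. The groups did not overlap, but control replicate 7 lay much nearer to the fear conditioned libraries than to control replicate 6. The log2 fold change was -1.81 (SE 0.90, limma adjusted p = 0.368), or -3.27 without control replicate 7. Fzd4 (ENSMUSG00000049791), which also serves as the receptor of Norrin in the retinal vasculature, lay above both controls. It had 11, 25 and 22 reads in fear conditioned libraries and 0 and 1 read in controls, too few to be tested, and the ratio of pooled reads per depth was 43.5 with a 95% exact binomial interval of 7.501 to 1747. Fzd3 (ENSMUSG00000007989), which guides growing axons, had the highest level per kilobase of the family on the mean of all libraries, at 2.58. It read 6.50, 12.5 and 11.7 against 4.51 and 26.8, and its log2 fold change of -0.19 (SE 0.80) became -1.36 without control replicate 6 and 0.98 without control replicate 7. Fzd2, Fzd7, Fzd8 and Fzd9 had overlapping groups and values from 0 to 13.4.

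The co-receptor and the alternative receptors showed no order between groups. Lrp6 (ENSMUSG00000030201) read 17.7, 25.8 and 26.5 in fear conditioned libraries, 8.72 in control replicate 6 and 45.5 in control replicate 7. The controls enclosed all 3 fear conditioned values, and the log2 fold change was 0.17 (SE 0.70), or -0.96 without control replicate 6 and 1.30 without control replicate 7. Ryk (ENSMUSG00000032547), a Wnt receptor with an inactive kinase domain, was the highest receptor per kilobase at 6.12. Its values were 29.9, 30.8 and 29.4 after fear conditioning, 48.9 in control replicate 6 and 3.74 in control replicate 7. The fear conditioned libraries thus agreed within a narrow range while the controls lay on either side, and the log2 fold change of 1.01 (SE 0.95, limma adjusted p = 0.606) became -0.69 without control replicate 7. Ror1, a Wnt5a receptor, read 1.80, 3.75 and 5.26 against 11.3 and 0. Its deposited length is below 0, so it has no level per kilobase.

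Dishevelled genes, which relay the signal from Frizzled into the cytoplasm, had overlapping groups. Dvl1 (ENSMUSG00000029071), with 14.1 per kilobase, read 88.5, 82.5 and 62.0 after fear conditioning and 66.5 and 39.6 in controls. Its log2 fold change was 0.57 (SE 0.33, limma adjusted p = 0.421), or 0.20 without control replicate 7 and 0.94 without control replicate 6. Dvl2 read 9.04 to 9.09 in fear conditioned and 8.23 to 12.6 in control libraries, and Dvl3 read 10.03 to 15.7 and 9.33 to 13.1. Neither differed by more than the spread between controls.

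In the destruction complex, which marks beta-catenin for degradation, Apc (ENSMUSG00000005871) had the smallest adjusted p of the members. It read 51.4, 57.4 and 57.4 in fear conditioned libraries and 138 and 170 in controls. The groups were widely separated, with a control mean 2.78-fold higher. Apc had a log2 fold change of -1.45 (SE 0.23, limma adjusted p = 0.197), from -1.60 to -1.30 when any 1 library was left out, and DESeq2 gave -1.51 with an adjusted p of 4.46e-05. Apc is also the longest member, at 15806 bases in the deposited table, and fold changes varied with length across all genes. The median log2 fold change was 0.09 for the 2683 genes of up to 2000 bases and -0.35 for the 834 genes over 10000 bases. Of those long genes, 33.1% had all fear conditioned libraries below both controls and 8.39% above both. The other members over 10000 bases, Gsk3b and Lrp6, had log2 fold changes of -1.06 and 0.17. The part of gene length in the difference of Apc was not tested.

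Axin1 (ENSMUSG00000024182), the scaffold of the complex, had the largest positive log2 fold change of the members, and it rested on 1 library. It read 22.5, 34.4 and 22.9 after fear conditioning, 17.1 in control replicate 6 and 0 in control replicate 7. The log2 fold change was 2.67 (SE 1.18, limma adjusted p = 0.323) and 0.58 without control replicate 7. A value of 0 was unusual at this level: of the 7121 genes with a fear conditioned mean of at least 20, 35 (0.492%) were at 0 in control replicate 7, and Axin1 was the only one of the 10 members at that level. Axin2 (ENSMUSG00000000142), its relative and a feedback target of the pathway, read 1.90, 1.21 and 1.44 against 2.04 and 9.70. The groups did not overlap, although control replicate 6 lay close to fear conditioned replicate 2, and the log2 fold change was -1.19 (SE 0.70, limma adjusted p = 0.429), or -0.28 without control replicate 7.

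The Gsk3 kinases had overlapping groups. Gsk3a (ENSMUSG00000057177) read 81.1, 94.8 and 85.4 after fear conditioning and 67.6 and 108 in controls, with a log2 fold change of 0.02 (SE 0.28). It was -0.32 without control replicate 6 and 0.36 without control replicate 7. Gsk3b (ENSMUSG00000022812), of 10143 bases, read 63.5, 78.5 and 125 against 115 and 280. Fear conditioned replicate 4 lay above control replicate 6, and the log2 fold change was -1.06 (SE 0.46, limma adjusted p = 0.318). Ctnnb1 (ENSMUSG00000006932), whose product the complex controls, read 241, 196 and 201 against 302 and 234. Its groups overlapped and its log2 fold change was -0.32 (SE 0.23, limma adjusted p = 0.494), or -0.14 without control replicate 6 and -0.51 without control replicate 7. The most abundant member was thus lower by less than the gap between the controls.

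TCF/LEF factors, the DNA-binding partners of beta-catenin, fell into separate arrangements. Lef1 (ENSMUSG00000027985) had 64, 23 and 70 reads in fear conditioned libraries and 0 reads in both controls. The normalised read counts were 3.03, 0.958 and 3.48 against 0 and 0, at least 19.3-fold higher at a floor of 3 reads per library. The log2 fold change was 1.71 (SE 0.58, limma adjusted p = 0.242), and DESeq2 gave an adjusted p of 0.00889. Tcf7 (ENSMUSG00000000782), the highest of the family at 6.18 per kilobase on the mean of all libraries, read 22.3, 36.4 and 29.1 against 23.8 and 16.2, with a log2 fold change of 0.52 (SE 0.40, limma adjusted p = 0.533), or 0.26 without control replicate 7. Tcf7l1, largely a repressor, read 4.27, 3.87 and 4.02 after fear conditioning, 2.44 in control replicate 6 and 24.5 in control replicate 7. Tcf7l2, a factor also known as a mark of thalamic neurons, read 2.99, 5.41 and 8.14 after fear conditioning, 2.97 in control replicate 6 and 54.0 in control replicate 7. Their log2 fold changes of -0.89 (SE 0.91) and -1.26 (SE 1.14) turned to 0.56 and 0.63 without control replicate 7. Lef1 and Tcf7l2 are both on the list of thalamus and habenula neuron markers. With both genes included, that list summed to 87.0 to 118 in fear conditioned and 206 to 233 in control libraries. Gbx2, Lhx2 and Lhx9 were also at 0 in control replicate 7, and Lhx9 in fear conditioned replicates 2 and 4. Of the 9 markers tested, 2 were higher without overlap, Lef1 and Lhx2, and 2 lower (22.2% each, beside 20.2% and 16.1% of all genes). The part of the list in these values was not tested.

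Promoters of the members were searched for the letters that TCF/LEF factors prefer, CTTTGAT or CTTTGAA on either strand, in the 250 bases before the start of transcription in RefSeq annotation of GRCm38.p6. A promoter was listed for 32 of the 47 members, and 2 of the 32 (6.25%) held a match, beside 2333 of all 27025 genes (8.63%). None of the 8 non-overlapping members with a listed promoter held one. Both windows are shown on the minus strand of the genome, 5′ to 3′ in the direction of the gene, with the motif in capitals, because they belong to the inhibitor seen in 1 control library and to the destruction complex kinase with the smallest log2 fold change. The Dkk1 window lies at chr19:30549582-30549638 and the Gsk3a window at chr7:25237978-25238034, where the motif is on the opposite strand. They begin their motifs 117 and 158 bases before the start of transcription. A match in these letters is a description and not a binding site.
Dkk1: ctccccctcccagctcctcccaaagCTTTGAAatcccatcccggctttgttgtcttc
Gsk3a: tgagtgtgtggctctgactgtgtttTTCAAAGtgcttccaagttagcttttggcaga

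Many members were detected in 1 control library and not in the other. In control replicate 7, 15 members (31.9%) were at 0 although control replicate 6 held more than 3 reads, beside 2070 of all genes (13.7%). Zeros in control replicate 7 were rarer at higher levels. With a fear conditioned mean of at least 1, 12.3% of genes and 11 of 37 members were at 0, and with a mean of at least 10, 1.67% of genes and 1 of 15 members. The part of level in the members' share was not tested. The reverse held for Dkk1 among the members and for 387 of all genes. The 18 members at 0 in control replicate 7 comprised 5 of 10 Wnt ligands, all 4 Sfrp inhibitors, 3 of 4 R-spondins, 2 of 9 Frizzled receptors, Dkk2, Ror1, Axin1 and Lef1. Of these, 11 had more than 3 reads in all 4 other libraries. By contrast, 26 members had more than 3 reads in all 5 libraries.

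**Figure D4:**
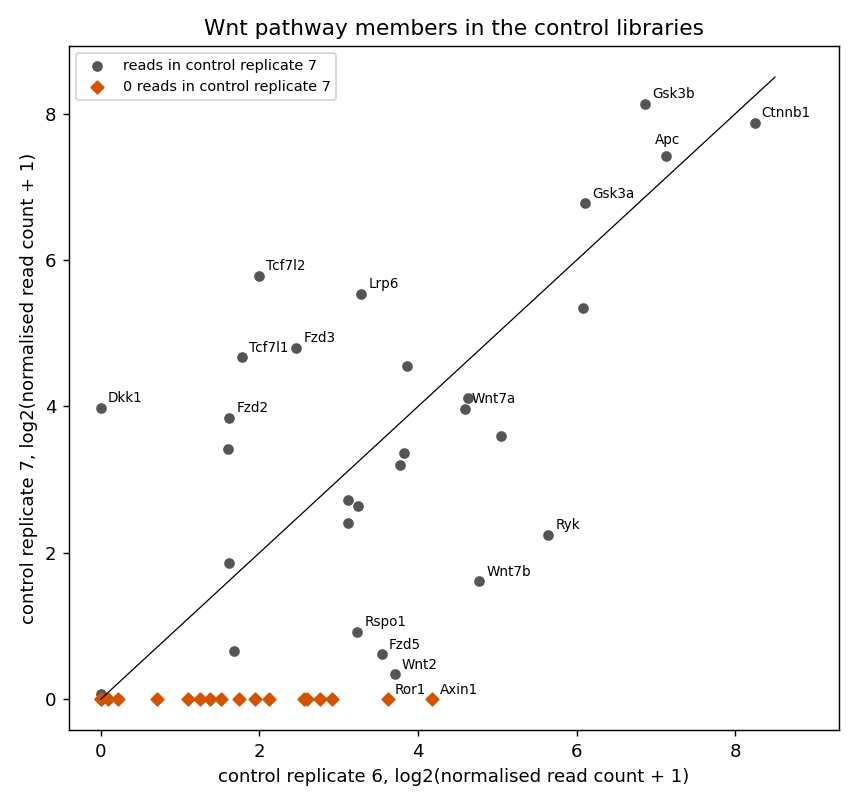
Log2(normalised read count + 1) of the 47 members in control replicate 7 against control replicate 6, with the line of equal values. Orange diamonds mark the 18 members with 0 reads in control replicate 7, which run up to Axin1 at 17.1 in control replicate 6, and the points above the line include Dkk1, Tcf7l2, Tcf7l1 and Lrp6.

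Other genes of the pathway outside these members gave no call by limma. Of 87 listed genes, 76 were measured and 74 tested, and 0 passed the adjusted test, as was the case by edgeR. DESeq2 called 10 of the 76, beside 7.47% of all genes. At an unadjusted p under 0.05, 7 were higher and 12 lower (9.46% and 16.2%, beside 9.49% and 7.32% of all genes). The groups did not overlap for 14 higher and 16 lower genes (18.9% and 21.6%, beside 20.2% and 16.1% of all genes). The median log2 fold change was -0.09. Among the 10 tested extracellular modulators, Sostdc1, an inhibitor of Wnt and BMP signalling, read 1.23, 0.375 and 0.298 after fear conditioning and 9.58 and 31.2 in controls. Its log2 fold change was -3.54 (SE 0.70, limma adjusted p = 0.197). Choroid plexus markers moved in the same direction, with 7 of 10 tested lower at an unadjusted p under 0.05 and none higher, and their part in the difference of Sostdc1 was not tested. Aqp1 and Otx2 of that list were at 0 in control replicate 7, and 4, 1 and 2 of its markers were at 0 in fear conditioned replicates 2, 3 and 4. Kremen1, a Dickkopf receptor, read 24.7, 46.4 and 32.5 against 17.03 and 9.23, and Cthrc1, a Wnt cofactor, read 5.07, 3.08 and 5.16 against 2.91 and 0.0527. At the receptor level, groups overlapped for all 8 genes tested, among them the R-spondin receptor and ubiquitin ligase genes.

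Of the 23 cytoplasmic regulators tested, 5 were higher without overlap and 6 lower, beside 20.2% and 16.1% of all genes, and none passed the limma test. Dact2, a Dishevelled-binding protein, read 11.3, 14.0 and 14.3 in fear conditioned and 2.27 and 1.69 in control libraries. The difference was 2.25 on the log2 scale (SE 0.52, limma adjusted p = 0.197). Its relative Dact1 lay in the other direction, at 1.85, 1.96 and 0.745 against 4.44 and 17.5. Usp34, a deubiquitinase that acts on Axin and has 17049 bases in the deposited table, read 16.6, 19.3 and 22.9 against 86.5 and 93.4, a log2 fold change of -2.15 (SE 0.31, limma adjusted p = 0.197).

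Of 18 nuclear regulators of the pathway, none passed the limma test, and 7 were higher without overlap and 5 lower, beside 20.2% and 16.1% of all genes. Tle6, of the Groucho family of corepressors, read 2.42, 4.91 and 2.63 after fear conditioning and 0 in both controls, at least 25.7-fold higher at the same floor. Bcl9, a beta-catenin coactivator, read 5.93, 5.91 and 7.10 against 44.7 and 15.0, with a log2 fold change of -1.89 (SE 0.60, limma adjusted p = 0.231). Tle3 read 4.98, 3.00 and 3.43 against 7.31 and 29.1. Planar polarity genes gave 4 lower and 0 higher without overlap among 12 tested, beside 16.1% and 20.2% of all genes. The lower ones of largest fold change are all long, whereas Vangl2, the remaining one, has 7411 bases and a log2 fold change of -0.39. Celsr3, Celsr2 and Prickle2, of 11506, 12196 and 14537 bases, had log2 fold changes of -1.66, -1.39 and -0.998 (SE 0.62, 0.48 and 0.33), and the part of gene length in them was not tested. Of the 11 tested genes listed as transcriptional targets of the pathway, groups did not overlap for Lef1, higher, and Axin2, lower, both described above. These are 9.09% each, beside 20.2% and 16.1% of all genes.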

How the data were processed

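Libraries were prepared from ribosome-bound RNA with the SMARTer and NexteraXT kits and sequenced as 50-base pairs, and the submitters' processing notes name DESeq and the mm8 build. The study's methods name Tuxedo and DESeq software, and neither the aligner nor any version is given in the sources used here. The authors deposited 1 table of normalised values per gene, treated here as signal, which lists genes above 1 in at least 1 library. In each library 100% of values were whole multiples of the smallest (tolerance 0.01), so reads were recovered. The design anticipated CPM values, and the test planned for them was kept. Genes with a mean of at least 1 were fitted with limma 3.58.1 (trend) in R 4.3.3 on log2(value + 1), fear conditioned against control, two-sided, with Benjamini-Hochberg adjustment over 13560 genes. Fold changes are on this scale, which understates those of low genes. A gene was called at an adjusted p below 0.05 where its log2 fold change also exceeded 0.5 in size. edgeR 4.0.16 and DESeq2 1.42.0 were run on recovered reads as alternatives. The limma fit (with and without array weights), edgeR and DESeq2 were tried on simulated data, and the other settings were not. Spread was uniform in those data, unlike that of the controls here, so they do not show how the fits perform on these libraries. Replicates are pools, and p-values measure the spread between them. The kit does not mark strand, so overlapping genes cannot be told apart. Intervals and floors (3 reads per library) cover counting error only.

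Every member is given in its role. Values in every library are given for the member of each role with the highest level per kilobase, for members whose groups do not overlap and for members with 3 reads or fewer in each library of 1 group only. Of each other pathway list, up to 3 non-overlapping genes with the largest fold changes are given. Further genes of these lists named for their length were chosen after the values were seen. Values of some further members are also given, a choice made after these were seen. Members, pathway lists and marker lists were chosen with earlier results of these data known.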

Additional observations from a re-analysis of the deposited data

How the results depend on the processing

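Counts of members moved with the settings as follows. At an unadjusted p under 0.05 the 8 members became 5 with a value of at least 1 required in every library, 3 with array weights and 13 by DESeq2, and 2 to 31 with 1 library left out. Past both cutoffs the 0 members became 4 by DESeq2 and 0 to 29 with 1 library left out, and the 0 other pathway genes became 10 and 0 to 48. The 14 of 41 members without overlap became 7 of 23 with a value of at least 1 required in every library. They were 14 to 16 with a fear conditioned library left out, 34 without control replicate 6 and 30 without control replicate 7. A lone control is easier to separate from the other group, and the shares of all genes without overlap were not counted under these settings. Direction turned for Fzd3 (0.075 with quantile normalisation), Gsk3a (-0.022 by edgeR and -0.054 by DESeq2), Lrp6 (-0.24 and -0.27), Rspo1 (-0.29 with quantile normalisation and -0.034 by DESeq2) and Sfrp5 (0.50 with a pseudocount of 0.1). With 1 library left out, log2 fold changes ran from -1.36 to 0.98 for Fzd3, -0.32 to 0.36 for Gsk3a, -0.96 to 1.30 for Lrp6, -0.88 to 1.42 for Rspo1, -0.69 to 2.71 for Ryk, -2.33 to 0.56 for Tcf7l1 and -3.16 to 0.63 for Tcf7l2. The cause was not tested. Across the 26 named members, 189 of 197 values under other settings and 113 of 123 with a library left out kept their direction. The 14 members without overlap are among the 26, and leaving out 1 library cannot turn their direction. The second count was therefore largely fixed by this choice and does not measure stability. The median log2 fold change of all genes was 0.08 in the test reported and -0.11 by DESeq2. No replicate number occurs in both groups, and a paired fit was therefore not possible. Genes at a few reads are limited by depth, and groups of 3 and 2 libraries are too small for a test of outlying samples.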
